A study of Mus musculus with 4 samples.

Results

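The E2F and DP transcription factors were read on 4 whole-genome arrays of mouse embryonic fibroblasts (MEFs) that differed in the retinoblastoma protein Rb. The genes were chosen by symbol as a family, with earlier results of these data known: E2f1 to E2f8 and the DP partners Tfdp1 and Tfdp2. These 10 genes, of 30872 symbols on the array, were covered by 19 of the 45281 probes. A probe was taken as detected when its deposited detection p-value was below 0.01. By that rule 7 of the 10 genes (E2f1, E2f3, E2f4, E2f5, E2f6, Tfdp1 and Tfdp2) were detected on all 4 arrays, E2f2 was detected on 1 array only, and E2f7 and E2f8 were detected on none.

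Each condition had 1 array. Parental MEFs carried floxed Rb alleles on the strain background FVB;129 and received a solution without TAT-Cre and then medium without virus. Rb-deleted MEFs received TAT-Cre, a cell-permeable recombinase that removes the floxed Rb segment, and then medium without virus. WT Rb-HA MEFs received TAT-Cre and a retrovirus for HA-tagged wild type Rb, and ΔCdk Rb-HA MEFs received TAT-Cre and a retrovirus for HA-tagged Rb whose Cdk acceptor residues were changed to alanine, so that it cannot be phosphorylated there. TAT-Cre or its control, and virus or its control, were each given as 2 exposures of 1 h, 3 h apart. By the study's methods, but not by the labels, all 4 cultures were released from contact arrest and treated with doxorubicin, a DNA damaging drug. No array of untreated cells was analysed here, so the response to doxorubicin itself was not measured. The virus-treated cultures also carried a retrovirus that the other 2 did not, and no array of an empty virus was analysed here. Every culture except the parental one received TAT-Cre, so Rb loss and exposure to TAT-Cre cannot be told apart in ratios to parental. Since every condition was hybridized once, differences between conditions could not be set against a spread between cultures, and none was tested.

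E2F proteins bind promoters of genes for DNA synthesis and cell cycle progression, most of them as heterodimers with a DP protein. E2F1, E2F2 and E2F3 are called activators, E2F4, E2F5 and E2F6 repressors, and E2F7 and E2F8 are atypical members that bind DNA without DP and repress. Rb and its relatives p107 and p130 bind E2F proteins and hold their target genes down, and hyper-phosphorylation of Rb by Cdks in late G1 phase releases them. Several E2F genes are themselves known E2F targets, so the mRNA of a factor and its activity as a protein are separate quantities, and the arrays measured the mRNA.

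Promoters of the factors were searched for the E2F site, because it is the sequence through which these proteins act on their targets, themselves included. The letters searched were TTTCCCGC, TTTCGCGC, TTTGCCGC and TTTGGCGC on both strands, in RefSeq windows of assembly GRCm38.p6 that run from 250 bases before to 50 bases after a transcript start. E2f4 and E2f5 were not in this table, which left 8 genes with 12 windows. A match was found in E2f2, E2f3, E2f7 and Tfdp1, which is 4 of 8 genes, beside 704 of 27025 genes (2.61%) for all genes of the table and 16 of 34 (47.1%) for a list of known E2F targets. With the leading T dropped from each motif, E2f8 was added for 5 of 8 genes, beside 10.9% of all genes and 73.5% of the targets. Stretches of 130 bases directly before a transcript start are shown for the gene with the largest expression difference (E2f1) and for the 2 genes with a match that were detected on all arrays (E2f3 and Tfdp1), each 5′ to 3′ on the gene's own strand. Capitals mark the E2F letters.
E2f1, chr2:154569427-154569556, minus strand: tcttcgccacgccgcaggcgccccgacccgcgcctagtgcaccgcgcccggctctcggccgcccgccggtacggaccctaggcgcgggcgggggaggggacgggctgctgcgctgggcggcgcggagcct
E2f3, chr13:29986064-29986193, minus strand: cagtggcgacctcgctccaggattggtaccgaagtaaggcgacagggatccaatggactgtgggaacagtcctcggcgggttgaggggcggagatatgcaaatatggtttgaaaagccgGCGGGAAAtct
Tfdp1, chr8:13338621-13338750, plus strand: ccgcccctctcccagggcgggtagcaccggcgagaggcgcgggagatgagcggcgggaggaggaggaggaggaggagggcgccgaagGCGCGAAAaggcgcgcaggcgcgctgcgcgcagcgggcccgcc

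The E2f3 match begins 11 bases before the transcript start used here, and the Tfdp1 match 43 bases before. A gene, here and among all genes, counted as matched when any of its windows held a match. The other windows of E2f2 and E2f3 held none, and the Tfdp1 match begins 96 bases before that gene's other start. The match of E2f2 lies after its start and that of E2f7 lies 198 bases before it, both outside a stretch of this length. The E2f1 window held none of these letters, which says only that they are not in these bases. A match is a description of letters and not a measured binding site, and no binding was measured on these arrays.

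Total RNA was hybridized to Illumina MouseWG-6 v2.0 BeadChips, on which 50-base probes are attached to beads. The deposited intensity of a probe is the mean over its beads, with a median of 44 beads per probe on each array. Mean intensity over all probes was 336 to 346 on the 4 arrays, and 15950 to 16740 probes were detected. Rb1, the deleted gene, was at -1.88 on the log2 scale relative to parental after TAT-Cre alone, at -1.69 with WT Rb-HA added and at -1.75 with ΔCdk Rb-HA added (probe at transcript position 4421), so both re-expressing cultures stayed low there. A dimmer probe at position 4002 gave -1.31 after TAT-Cre alone and was not detected on the 2 re-expressing arrays. Whether the viral Rb transcript or the floxed segment contains the bases of either probe was not given in the sources used here. The probes thus read lower Rb1 mRNA, and they check neither the excision itself nor the re-expression. All 10 fibroblast markers were detected on all 4 arrays, and none of 4 endothelial markers on any.

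E2f1, an activator and itself a known E2F target, differed most among the factors. Its single probe (chromosome 2, position 2392 of the transcript) had an intensity of 388 in parental MEFs (bead standard error 14.1), 809 after Rb deletion (25.0), 557 with WT Rb-HA (14.0) and 626 with ΔCdk Rb-HA (15.9). E2f1 mRNA was therefore highest in Rb-deleted MEFs, next in ΔCdk Rb-HA MEFs, then in WT Rb-HA MEFs and lowest in parental MEFs. In deposited intensity it was 2.09-fold, 1.61-fold and 1.44-fold of parental on these 3 arrays.

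After background correction and quantile normalization, the ratio of E2f1 in Rb-deleted to parental MEFs was 1.15 on the log2 scale (bead standard error 0.07), and only 37 of the 12616 analysed genes had a higher ratio. In WT Rb-HA MEFs E2f1 was 0.55 lower than in Rb-deleted MEFs on that scale (bead standard error 0.06), a difference short of 1.6-fold. Only 161 genes (1.28%) were lower in that comparison. In ΔCdk Rb-HA MEFs E2f1 was 0.34 lower than in Rb-deleted MEFs (0.06), and there 1634 genes were lower. Both re-expressing arrays thus read E2f1 between the Rb-deleted and the parental array. Of the log2 increase on the Rb-deleted array over the parental array, 52.5% remained with WT Rb-HA and 70.6% with ΔCdk Rb-HA. These 2 shares use the same parental and Rb-deleted arrays. Each neighbouring pair in the order of E2f1 levels differed by more than 2 bead standard errors, the closest pair being the re-expressing arrays, with ΔCdk Rb-HA higher by 0.21 (0.05). Bead error covers the reading of 1 hybridization, and not the spread between cultures.

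**Figure D1:**
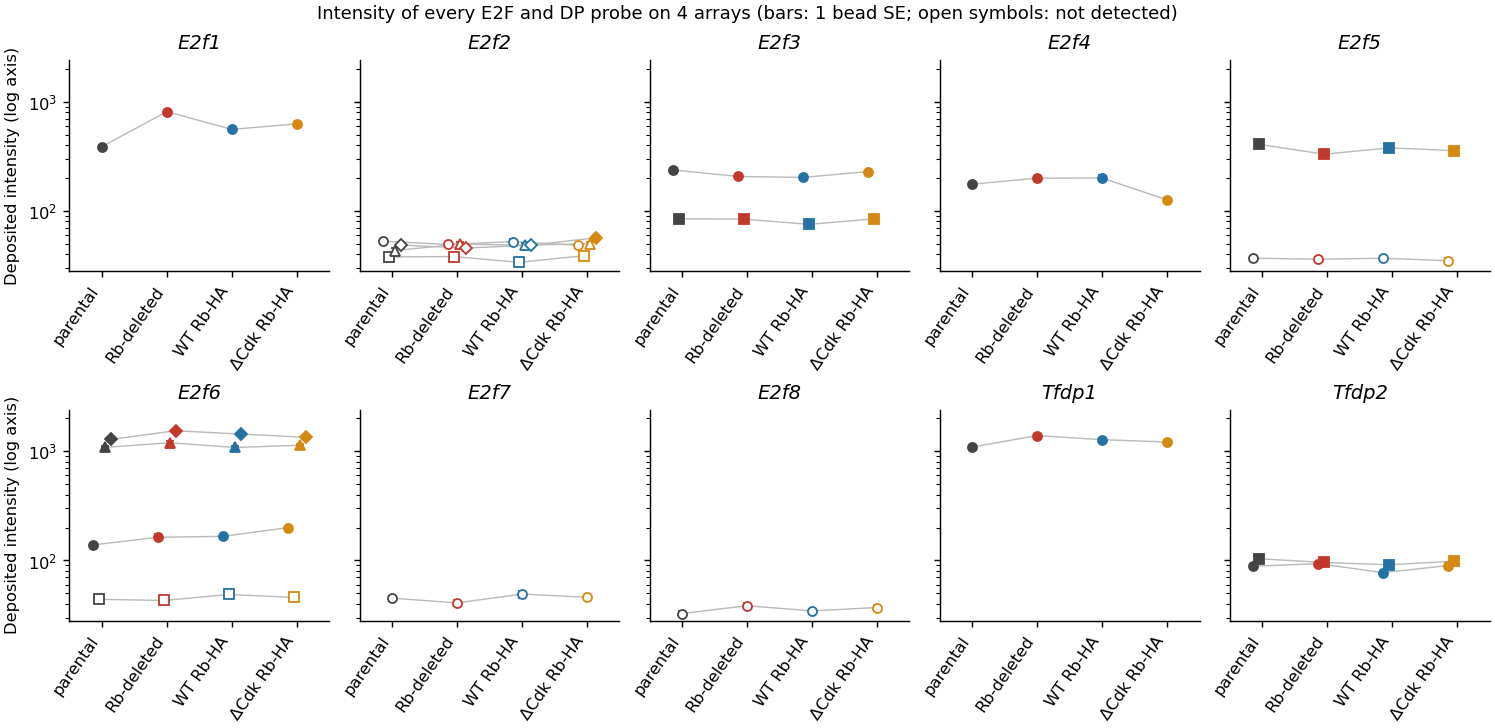
Deposited intensity (log axis, arbitrary scanner units) of all 19 probes of the 10 genes on each array, with 1 panel per gene and 1 symbol shape per probe; bars of 1 bead standard error are mostly smaller than the symbols, and open symbols were not detected. E2f1 goes from 388 on the parental to 809 on the Rb-deleted array, E2f4 drops to 126 on the ΔCdk Rb-HA array alone, and E2f7 and E2f8 have open symbols on every array.

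E2f2, also an activator, was close to background on all 4 arrays. The probe at position 3226 read 48.6 in parental MEFs, 45.6 after Rb deletion, 48.6 with WT Rb-HA and 56.6 with ΔCdk Rb-HA, where its detection p-value of 0.0064 passed the limit. On the other arrays that p-value was 0.058, 0.105 and 0.094. Against the dimmest signal detected on the Rb-deleted array, 4.93 on the normalized log2 scale, the probe's 5.03 with ΔCdk Rb-HA gave a bound of 1.07-fold. That gap is smaller than the bead standard error of the ΔCdk Rb-HA reading (0.14). The probe also entered the analysis only through the ΔCdk Rb-HA array, so the bound is not a measured increase. Against the parental and the WT Rb-HA arrays no bound above 1 could be given.

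A neighbouring E2f2 probe, listed at position 3193, ends with the 18 bases with which the probe at 3226 begins, and it did not pass on any array. These shared bases are shown because both probes read them.
E2f2, overlap of the probes at 3193 and 3226: gtcagcttcctggtgcca
This neighbour read 43.3, 49.7, 48.4 and 50.1 in the same order of arrays, with a detection p-value of 0.049 on the ΔCdk Rb-HA array. It was lowest on the parental array and within 2 units on the other 3. The 2 remaining E2f2 probes, at positions 1150 and 1372, read between 33.8 and 52.8 and were detected nowhere. The detection of E2f2 thus rests on 1 of 4 probes on 1 array.

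E2f3, the remaining activator, differed little between arrays. Its brighter probe (chromosome 13, position 1739) read 237 in parental MEFs, 206 after Rb deletion, 202 with WT Rb-HA and 229 with ΔCdk Rb-HA. The 2 middle arrays read slightly lower than the parental and the ΔCdk Rb-HA array. Relative to parental, its log2 ratio was -0.19 after Rb deletion (bead standard error 0.07), -0.22 with WT Rb-HA (0.08) and 0.01 with ΔCdk Rb-HA (0.07). The probe at position 4793 of another transcript record gave 0.02 (0.18), -0.26 (0.17) and 0.01 (0.18), each within 2 bead standard errors of 0.

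Among the repressors, E2f4 was the gene that set ΔCdk Rb-HA apart. E2F4 is abundant in many quiescent cells, where it sits on promoters with p107 or p130. Its single probe (chromosome 8, position 1761) read 176 in parental MEFs (bead standard error 8.08), 199 after Rb deletion (8.84), 200 with WT Rb-HA (11.3) and 126 with ΔCdk Rb-HA (5.58). The ΔCdk Rb-HA array lay below the others, of which the parental array read lowest. On the log2 scale the ratio to parental was 0.23 after Rb deletion (0.10), 0.23 with WT Rb-HA (0.13) and -0.53 with ΔCdk Rb-HA (0.11).

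Compared with Rb-deleted MEFs, E2f4 was 0.76 lower in ΔCdk Rb-HA MEFs on the log2 scale (bead standard error 0.11), which is 1.69-fold, and 152 of 12616 genes were lower. Compared with WT Rb-HA MEFs it was also 0.76 lower (0.13), where 87 genes were lower. These 2 comparisons share the ΔCdk Rb-HA array, and E2f4 took the same normalized value on the other 2 arrays, so they are not separate readings of the decrease. Without background correction, or with an offset of 50 added after it in place of 16, the decrease was smaller than 1.6-fold in both.

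E2f5, whose product like E2F4 binds p107 and p130, read 406 in parental MEFs at position 1606 of its transcript (chromosome 3), 330 after Rb deletion, 377 with WT Rb-HA and 356 with ΔCdk Rb-HA. It was highest in parental and lowest in Rb-deleted MEFs, the opposite order to E2f1 at both ends. The log2 ratio of Rb-deleted to parental MEFs was -0.27 (bead standard error 0.07), while those of WT Rb-HA at -0.05 (0.09) and ΔCdk Rb-HA at -0.11 (0.08) were within 2 bead standard errors of 0. The other probe of this transcript, at position 1218, read 35.0 to 36.9 and was detected nowhere.

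E2f6, which represses independently of Rb family proteins as part of a Polycomb-like complex, had 3 probes detected on all 4 arrays in the same transcript (chromosome 12). At position 2267, the brightest, it read 1281 in parental MEFs, 1540 after Rb deletion, 1434 with WT Rb-HA and 1343 with ΔCdk Rb-HA. In the same order, at position 2058 it read 1084, 1195, 1082 and 1134, and at position 1224 it read 139, 163, 166 and 200. All 3 probes were higher in Rb-deleted than in parental MEFs, with log2 ratios of 0.33, 0.22 and 0.30, but they disagreed on ΔCdk Rb-HA.

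In ΔCdk Rb-HA relative to parental MEFs the E2f6 probe at position 1224 gave 0.68 (bead standard error 0.10), just past 1.6-fold, where the probes at 2058 and 2267 gave 0.18 (0.04) and 0.16 (0.05). The probe nearest the transcript's start thus had the highest ratio of ΔCdk Rb-HA to parental MEFs, though it was the dimmest of them. For ΔCdk Rb-HA over WT Rb-HA the same probe gave 0.35 (0.09) and the brightest gave -0.07 (0.06). A probe on another E2f6 transcript record read 43.0 to 48.8 and was detected nowhere.

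**Figure D2:**
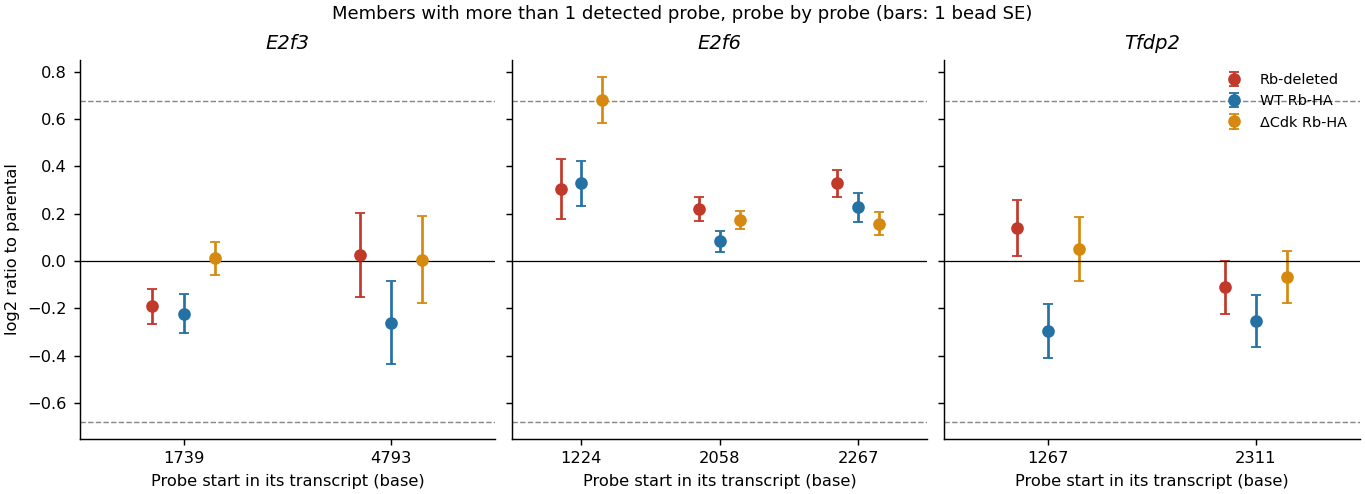
Log2 ratio to parental of each probe detected on all arrays, for the genes with more than 1 such probe (E2f3, E2f6 and Tfdp2), against the probe's start in its transcript in bases; points are the 3 other conditions, bars are 1 bead standard error and dashed lines mark 1.6-fold. The E2f6 probe at 1224 reaches 0.68 in ΔCdk Rb-HA MEFs while the 2 other E2f6 probes stay at 0.18 and 0.16.

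The atypical repressors were not detected. The single probe of E2f7 (chromosome 10, position 5043) read 45.2 in parental MEFs, 40.9 after Rb deletion, 49.2 with WT Rb-HA and 46.0 with ΔCdk Rb-HA, with detection p-values of 0.081 to 0.332. That of E2f8 (chromosome 7, position 982) read 32.7, 38.5, 34.5 and 37.1 in that order, with detection p-values of 0.507 to 0.966. Both genes are known E2F targets whose products act later in the cell cycle than E2F1. Signals at background give no ratio, so a change in either gene was not measurable with these probes.

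The DP partners were both detected on all 4 arrays. DP1 is the common dimerization partner of E2F1 to E2F6. The single probe of its gene, Tfdp1 (position 1607), read 1092 in parental MEFs, 1390 after Rb deletion, 1275 with WT Rb-HA and 1214 with ΔCdk Rb-HA. Tfdp1 was highest in Rb-deleted and lowest in parental MEFs, as E2f1 was, over a narrower range of 1.35-fold. Log2 ratios to parental were 0.43 (bead standard error 0.06), 0.31 (0.06) and 0.27 (0.05) in that order, and none passed 1.6-fold. Unlike E2f1, the readings of the re-expressing arrays did not separate, with ΔCdk Rb-HA at -0.03 (0.06) relative to WT Rb-HA.

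Tfdp2, which encodes the less studied partner DP2, had 2 probes on the same transcript (chromosome 9). At position 2311 it read 104 in parental MEFs, 95.8 after Rb deletion, 91.4 with WT Rb-HA and 98.5 with ΔCdk Rb-HA, and at position 1267 it read 88.6, 93.5, 77.4 and 89.9 in that order. Both probes were lowest on the WT Rb-HA array, with log2 ratios to parental of -0.25 (0.11) and -0.30 (0.11). They differed in sign for Rb-deleted MEFs, at -0.11 (0.11) and 0.14 (0.12), each within 2 bead standard errors of 0.

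Counted together, few of these genes passed 1.6-fold, the filter used in the study. In Rb-deleted over parental MEFs 1 of the 8 genes analysed passed, E2f1, beside 5.12% of all analysed genes. None passed in WT Rb-HA over parental, where the share of all genes was 3.34%, and E2f1 again was the only gene past it in ΔCdk Rb-HA over parental, beside 5.87%. With Rb-deleted MEFs as the base, none of the 8 passed in WT Rb-HA, beside 1.02%, and E2f4 passed, lower, in ΔCdk Rb-HA, beside 4.26%. E2f4 was also the gene that passed in ΔCdk Rb-HA over WT Rb-HA, beside 1.85%. With 8 genes, 1 call is a count too small to set the factors apart from other genes.

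Against bead error alone, many more ratios stood out, for these genes and for all genes alike. Past 2 bead standard errors were 6 of the 8 genes in Rb-deleted over parental MEFs (51.2% of all genes), 5 in WT Rb-HA over parental (46.8%) and 4 in ΔCdk Rb-HA over parental (53.3%). Between the TAT-Cre arrays they were 2 in WT Rb-HA over Rb-deleted (33.9%), 7 in ΔCdk Rb-HA over Rb-deleted (48.3%) and 4 in ΔCdk Rb-HA over WT Rb-HA (36.5%). A difference past bead error was thus common on these arrays. The last 2 counts include E2f2, which was not detected on the other array of either pair and entered the analysis only through the ΔCdk Rb-HA array, so its ratio there is not a measured one. Among the 7 genes detected on all arrays the counts were 6 and 3.

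**Figure D3:**
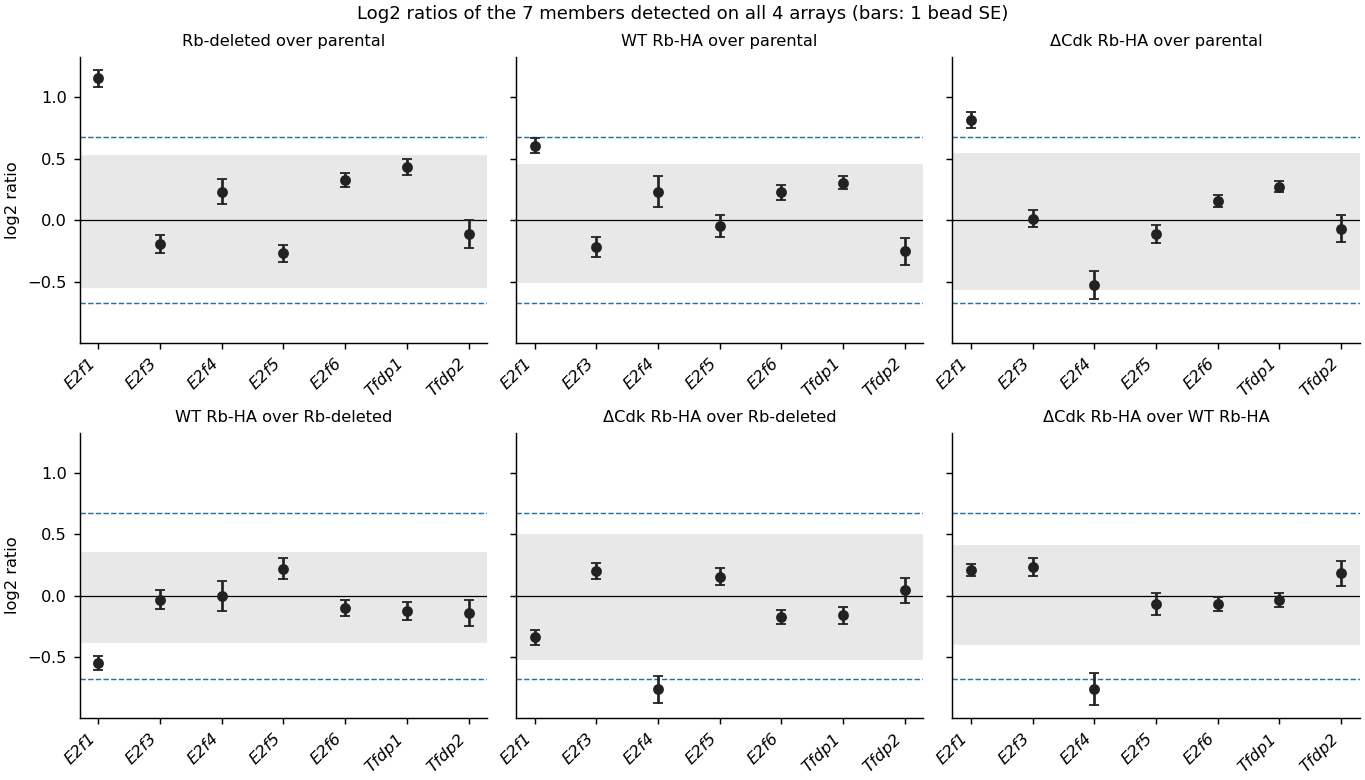
Log2 ratio between 2 arrays for the 7 E2F and DP genes detected on all 4 arrays, in each of the 6 comparisons; bars are 1 bead standard error, dashed lines mark 1.6-fold and the grey band spans the central 90% of all analysed genes. E2f1 is past 1.6-fold in Rb-deleted (1.15) and ΔCdk Rb-HA (0.82) over parental, and E2f4 (-0.76) in ΔCdk Rb-HA over Rb-deleted and over WT Rb-HA.

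The classes did not move as units. Between Rb-deleted and parental MEFs the detected activators pointed apart, E2f1 at 1.15 and E2f3 at -0.19, and among the repressors E2f4 at 0.23 and E2f6 at 0.33 stood opposite E2f5 at -0.27. The repressors had a median log2 ratio of 0.23 in Rb-deleted MEFs and of -0.11 in ΔCdk Rb-HA MEFs relative to parental, beside 0.02 and -0.01 for all analysed genes. In ΔCdk Rb-HA over WT Rb-HA MEFs the 2 activators detected on all arrays lay above 0, E2f1 at 0.21 and E2f3 at 0.23, and the 3 repressors below, at -0.76, -0.07 and -0.07, with the medians of all genes at -0.01. For E2f5 and E2f6 these values were within 2 bead standard errors of 0, and the sign of E2f6 depended on its probe. The DP partners had a median of 0.08 in this comparison. Over the 4 arrays E2f1 spanned 2.23-fold and E2f4 1.69-fold, and the other 5 genes detected on all arrays spanned 1.18-fold to 1.35-fold, each at its brightest probe. The E2f6 probe at position 1224 spanned 0.68 on the log2 scale, just past 1.6-fold.

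Genes whose 4 values followed E2f1 most closely were sought among 10830 genes detected on all 4 arrays, by the Euclidean distance between log2 values centred on each gene's mean. The nearest were Rfc4, a subunit of the clamp loader of DNA replication, at a distance of 0.09, and LOC385659, a predicted gene, also at 0.09. Hat1, which acetylates newly made histone H4, followed at 0.14, then Nasp, a histone chaperone, at 0.15, and Timeless, a component of the replication fork, at 0.16. Rfc4 had log2 ratios to parental of 1.05 after Rb deletion, 0.49 with WT Rb-HA and 0.75 with ΔCdk Rb-HA, and Nasp of 1.29, 0.77 and 1.01. Each of the 5 was thus highest in Rb-deleted MEFs and higher in ΔCdk Rb-HA than in WT Rb-HA MEFs, as the measure requires of a close match.

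For E2f4 the nearest genes were Spen, a transcriptional corepressor, at 0.03, Exoc7, a subunit of the exocyst, at 0.04, Dpt, a matrix protein, at 0.06, Fscn1, an actin bundling protein, at 0.07, and Lama2, a laminin chain, at 0.09. Dpt read 593 in parental MEFs, 666 after Rb deletion, 699 with WT Rb-HA and 394 with ΔCdk Rb-HA, and Fscn1 read 2496, 2733, 2749 and 1692 in that order. These genes were lowest on the ΔCdk Rb-HA array. Their log2 ratios of ΔCdk Rb-HA to Rb-deleted MEFs were -0.81 to -0.67, around the -0.76 of E2f4. Both follow from the choice by distance, as the measure requires of a close match. Such neighbours over 4 arrays describe a shape of 4 points.

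**Figure D4:**
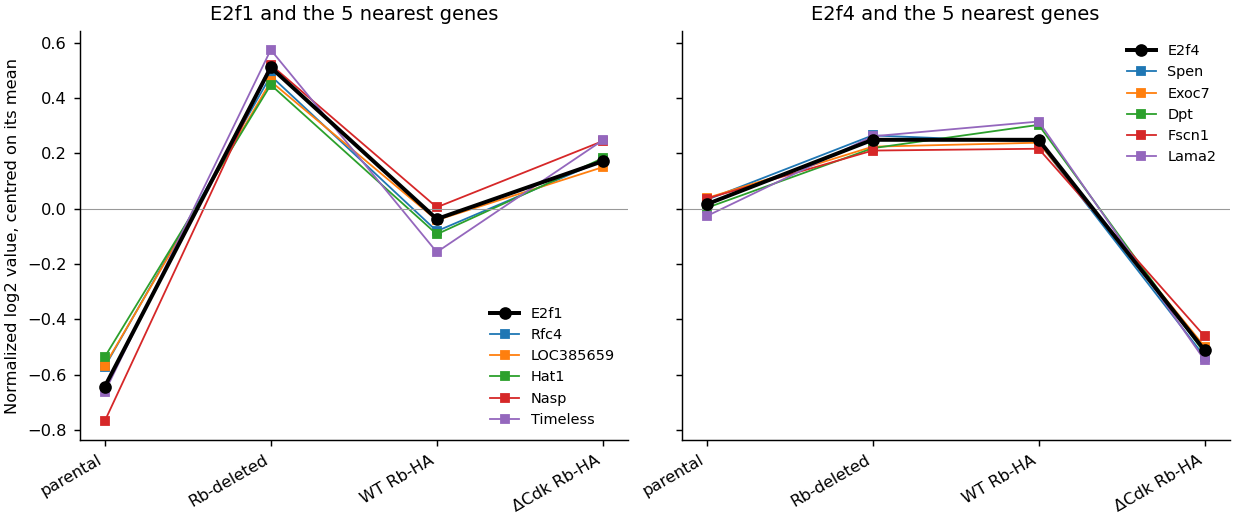
Normalized log2 values on the 4 arrays, centred on each gene's mean, for E2f1 (left) and E2f4 (right) in black with the 5 nearest of 10830 genes in colour. The genes near E2f1 peak on the Rb-deleted array. Those near E2f4 are lowest on the ΔCdk Rb-HA array and next lowest on the parental array.

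Known target genes of the factors were read beside them. Of 36 E2F targets analysed, of 43 symbols listed, 30 were higher past 1.6-fold in Rb-deleted than in parental MEFs and none lower, with a median log2 ratio of 1.05. In WT Rb-HA MEFs 11 were past 1.6-fold, with a median of 0.40, and in ΔCdk Rb-HA MEFs 22, with a median of 0.82. Of all analysed genes 5.12%, 3.34% and 5.87% passed 1.6-fold in either direction in these 3 comparisons. E2f1 stood near the medians of the targets, at 1.15, 0.61 and 0.82 on the same arrays, though its value in WT Rb-HA MEFs was above the list's. Relative to Rb-deleted MEFs 19 targets were lower past 1.6-fold with WT Rb-HA (median -0.73) and 4 with ΔCdk Rb-HA (median -0.34), where E2f1 gave -0.55 and -0.34. The shares of all analysed genes past 1.6-fold in either direction were 1.02% and 4.26% there. The 3 ratios to parental share that array, and the genes of the list were chosen with results of these arrays known.

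The regulators that act directly on E2F proteins were read from fixed lists, drawn up with earlier results of these data known. Of the pocket proteins, Rbl1, which encodes p107, read 76.9 in parental MEFs, 118 after Rb deletion, 77.1 with WT Rb-HA and 99.3 with ΔCdk Rb-HA. It was back at the parental reading with WT Rb-HA and between the 2 with ΔCdk Rb-HA. Rbl2, the gene of p130, was not detected on any array.

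Of 16 regulators of the passage through G1 phase, 4 were higher past 1.6-fold after Rb deletion, 1 with WT Rb-HA and 2 with ΔCdk Rb-HA, all relative to parental, and none was lower. Of all analysed genes 5.12%, 3.34% and 5.87% passed it in either direction. The counts of 1 and 2 are too small to set these regulators apart from other genes. Ccne1, cyclin E1, read 85.3 in parental MEFs, 175 after Rb deletion, 124 with WT Rb-HA and 155 with ΔCdk Rb-HA, and Ccne2, cyclin E2, read 51.8, 87.4, 64.5 and 102 in that order. The parental reading of Ccne2 did not pass detection, and Ccne2 was the regulator past 1.6-fold in ΔCdk Rb-HA over WT Rb-HA MEFs, with a log2 ratio of 1.02 (bead standard error 0.13). Cdk2, the kinase partner of cyclin E, was at 0.68 (0.06) in Rb-deleted over parental MEFs and at 0.40 in ΔCdk Rb-HA over parental. Skp2, which targets the inhibitor p27 for degradation, was at 0.69 (0.08) and 0.20 in the same comparisons. In Rb-deleted over parental MEFs both lay past 1.6-fold by less than 1 bead standard error. Ccne1, Cdk2 and Skp2 were highest in Rb-deleted MEFs, and Ccne2 in ΔCdk Rb-HA MEFs.

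No analysed gene of the MuvB and Myb group or of the E2F6 complex passed 1.6-fold in any comparison. Of all analysed genes only 1.02% to 5.87% passed it in either direction, so the lack of calls does not set so few genes apart. Analysed were 4 of 8 listed genes of the MuvB and Myb group and 8 of 9 listed genes of the E2F6 complex. Genes of the first group work with E2F4 and E2F5 or follow them on late cell cycle promoters. Median log2 ratios to parental of the MuvB and Myb group were 0.13 after Rb deletion, 0.01 with WT Rb-HA and 0.09 with ΔCdk Rb-HA, and those of the E2F6 complex were 0.04, 0.05 and -0.03 in that order. Mybl2, a MuvB partner and itself a known E2F target, was at 0.47, -0.06 and 0.45. Of 10 genes of G2 phase and mitosis analysed, 2 were higher past 1.6-fold in ΔCdk Rb-HA over parental MEFs and none on the other arrays. In ΔCdk Rb-HA over parental, 5.87% of all analysed genes passed in either direction. The medians of the 10 genes were 0.16, -0.11 and 0.38. All 10 had a ratio above 0 in ΔCdk Rb-HA over WT Rb-HA MEFs (median 0.43), beside a median of -0.01 for all analysed genes. Of the 10 genes 9 were detected on all arrays.

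**Figure D5:**
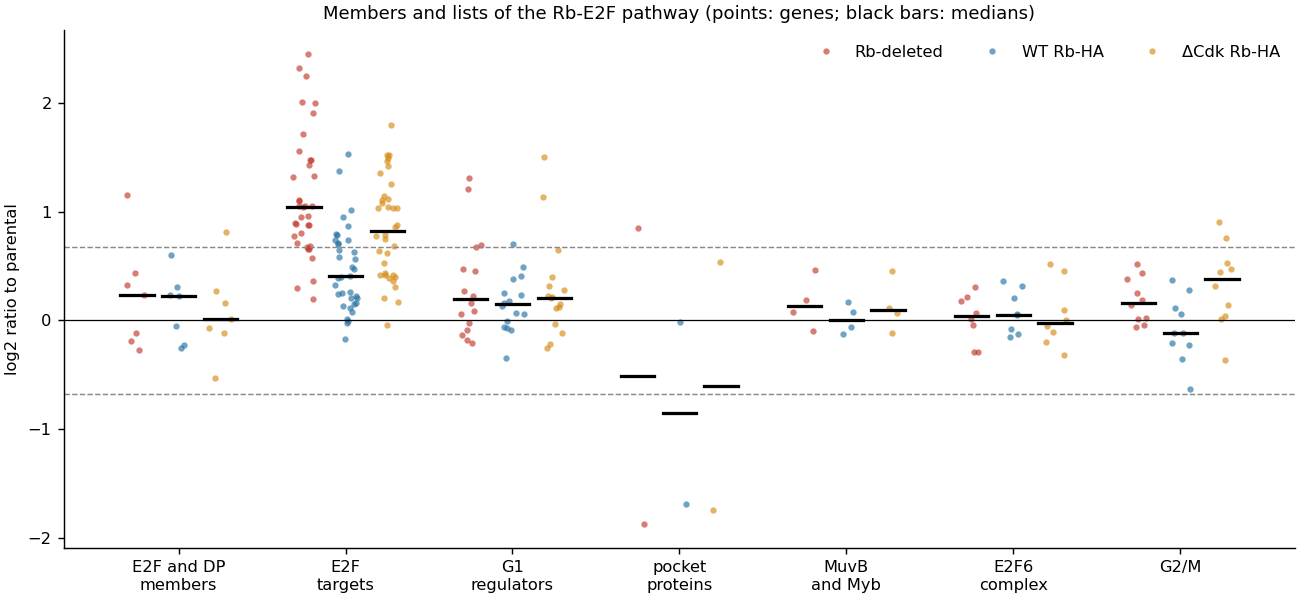
Log2 ratio to parental of each analysed gene in the 7 E2F and DP genes detected on all arrays and in 6 lists of the Rb-E2F pathway, with a colour for each of the 3 conditions; points are genes, black bars are medians and dashed lines mark 1.6-fold. The E2F targets (medians 1.05, 0.40 and 0.82) stand above the factors, the MuvB and Myb group and the E2F6 complex; Ccne2 among the G1 regulators was not detected on the parental array, so its points are not measured folds.

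Leukocyte markers were lower on the TAT-Cre arrays than on the parental array. Of 9 leukocyte markers 7 were detected on each array, without Ptprc, which encodes the pan-leukocyte surface protein CD45, and Fcer1g. Their summed intensity was 8587 on the parental array and 4055 to 4981 on the 3 TAT-Cre arrays, and all 7 had ratios below 0 on each of those. Summed fibroblast markers were 58682 to 66542 on the 4 arrays, and 3 epithelial markers together read 206 to 249 with Cdh1 detected on the Rb-deleted array only. The part of these differences in the E2F and DP values was not tested. Fewer cells of a type and less RNA per cell cannot be told apart in such bulk samples.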

How the data were processed

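Whole-genome microarray analysis covered 4 arrays, 1 per condition, with conditions taken from the labels, which also place all 4 on the same BeadChip. The authors deposited the bead-averaged intensity of each probe without normalization, with its bead standard error and number of beads. The deposited detection p-value gives a probe's rank among negative controls. How the authors normalized is not given in the sources used here.

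Intensities were background corrected with limma (version 3.58.1, R 4.3.3) by normexp, from the detection p-values, with an offset of 16. Quantile normalization and log2 transformation followed. Genes with a probe at p below 0.01 on at least 1 array were analysed (12616 genes, 10837 on all 4), each by its brightest probe. Bead errors were carried through the normalization. The normalization and the 1.6-fold call were tried on simulated data, and the calculation of bead errors was not part of that test. Computations used Python 3.11.15, numpy 2.4.6, pandas 2.3.3 and matplotlib 3.10.9. Of 40 symbols turned into dates, 34 were restored by Entrez number.

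The genes and lists were chosen with earlier results of these data known. Named were the 10 genes with every probe, Rb1, listed pocket, MuvB and Myb, E2F6 complex and G1 genes past 1.6-fold in Rb-deleted over parental or ΔCdk Rb-HA over WT Rb-HA, and the 5 nearest genes of factors spanning more than 1.6-fold. Mybl2, Rbl2, Cdh1 and the undetected leukocyte markers were named after their values were seen. Alternatives changed the background correction, offset, normalization, filter, probes per gene and fold threshold. The arrays' number limits the precision, and no p-value between conditions was computed.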

Additional observations from a re-analysis of the deposited data

How the results depend on the processing

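The 10 ways of processing kept the sign of every E2f1 ratio, with 1.08 to 1.19 for Rb-deleted, 0.52 to 0.63 for WT Rb-HA and 0.71 to 0.84 for ΔCdk Rb-HA over parental. E2f4 stayed at -0.86 to -0.61 in ΔCdk Rb-HA over Rb-deleted and over WT Rb-HA. Its call was lost (0 genes lower) in both with no background correction, an offset of 50 or a threshold of 2-fold. At 2-fold, 0 genes were higher in ΔCdk Rb-HA over parental, and at 1.5-fold E2f1 was added in WT Rb-HA over parental (1 gene). An offset of 1 added E2f2, for 2 genes higher in ΔCdk Rb-HA over parental and 1 each over Rb-deleted and WT Rb-HA.

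Class medians of so few genes moved more. With E2f2 counted, the activator median in ΔCdk Rb-HA over parental was E2f2's own ratio to an undetected signal, so not a measured value. It stood at 0.37, 0.22 with no background correction, 0.17 with an offset of 50, 0.79 with an offset of 1, and, as the ratio of E2f3, at 0.011 with a detection p-value below 0.05 or no filter. Over Rb-deleted, ΔCdk Rb-HA gave 0.20, against -0.063 (undetected E2f2) with that looser limit or no filter, and 0.092 with the mean of detected probes, which also gave -0.16 for WT Rb-HA over Rb-deleted. With E2f2 counted and an offset of 1, Rb-deleted and WT Rb-HA over parental were at -0.21 and -0.15. With genes detected on all 4 arrays, they were at 0.48 and 0.19, and the ratios over Rb-deleted were -0.29 with WT Rb-HA and -0.069 with ΔCdk Rb-HA. For repressors, median scaling gave 0.14 for WT Rb-HA and -0.22 for ΔCdk Rb-HA over parental, and the mean of probes gave 0.054 for ΔCdk Rb-HA over Rb-deleted. Median scaling put the DP partners at 0.018 in ΔCdk Rb-HA over parental. Causes were not tested. The other 143 class medians, 121 counts and 391 of the single ratios kept their value within 1 bead standard error or their count, and 35 single ratios moved further. The E2f2 ratios of ΔCdk Rb-HA to the other arrays changed sign with the probe that a setting used, from -0.20 to 0.79 over parental. With the looser detection limit or no filter the probe at position 1150 stood for E2f2 and gave the negative values. The probe at position 3226 stayed above 0 in the settings that used it.

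No paired analysis was possible because each condition had 1 array. Signals at background left E2f2 with 1 bound and gave none for E2f7 and E2f8.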
